A study of Mus musculus with 42 samples.

Results

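Relative mRNA stability in untreated (NT) NIH3T3 cells, a mouse embryonic fibroblast line, was read from 4 3′READS libraries of the 42 in the series. They were chosen by their labels: the 4sU-labelled and the flow-through (Ft) RNA of NT cells with a 0 h label, and the same fractions of NT cells with a 4 h label. No cell of these groups had received arsenite, and all had been given 50 µM 4-thiouridine (4sU) for 1 h before harvest. The 4sU fraction therefore holds RNA captured because it was made within that hour, and Ft holds what the capture left behind. The results are those of 1 cell line. The sources used here do not say whether the 0 h and 4 h cells were separate cultures, so spread between cultures may not enter the p-values. These rest on counting error and on a spread between the 0 h and 4 h pairs that leans on all genes. They do not measure the spread of each gene's own pairs alone.

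An mRNA that is degraded quickly is replaced quickly, so a large part of its molecules is new at any moment; a long-lived mRNA is mostly old. AU-rich elements in 3′UTRs, bound by proteins such as ZFP36 and its relatives, recruit the deadenylation machinery, and Pumilio proteins act in a similar way through their own element. Messages of transient regulators are known for fast turnover in fibroblasts, and messages of metabolic and structural proteins for slow turnover. The measure used here was log2(Ft/4sU), the fitted log2 ratio of normalised PAS reads (reads at poly(A) sites) of a gene between the fractions. It has no time unit, and 0 marks the centre set by the median-ratio scaling, so every value is relative to the other genes.

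The 4sU libraries held 2513834 (0 h) and 3960472 (4 h) PAS reads and the Ft libraries 2935698 and 3316741, of which 88.6% to 89.9% fell in protein-coding genes. All 12 fibroblast markers were listed in all 4 libraries, at a summed level of 14327 to 33562 RPM (reads scaled to the depth of each library). The 6 epithelial and 4 endothelial markers were unlisted in every library, and the haematopoietic and skeletal muscle lists summed to at most 5.45 and 9.05 RPM.

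Some AU-rich sites of messages with low log2(Ft/4sU) are shown first, because they carry the element most often tied to fast decay. Each line gives the first match to the AU-rich nonamer (ATTTATTTA, in capitals) in the 3′UTR up to the main PAS, on the mRNA strand and written as DNA, with 10 bases to each side.
Fos: tgtgttttcaATTTATTTAttaagatgga
Ptgs2: tactgaccatATTTATTTAtttatgtgaa
Vegfa: atttgttatcATTTATTTAttggtgctac
Cyr61: agtgaagagaATTTATTTAtaaaattaat
Zfp36l1: ctttgtgtgaATTTATTTAaaagaaaaaa
Zfp26: tttgtaaacaATTTATTTAtgtttttgta
Rc3h2: gatcttacacATTTATTTAatactcaagt
In mm9 these lie at chr12:86818051-86818079 (Fos, plus strand), chr1:151952918-151952946 (Ptgs2, plus), chr17:46154117-46154145 (Vegfa, minus), chr3:145309966-145309994 (Cyr61, minus), chr12:81208801-81208829 (Zfp36l1, minus), chr9:20238488-20238516 (Zfp26, minus) and chr2:37228939-37228967 (Rc3h2, minus). The Ptgs2 match starts 19 nt after the stop codon, and its 3′UTR of 2448 nt holds 2 nonamers and 14 AU-rich pentamers (ATTTA, which the nonamer contains). The messages shown were picked for holding the nonamer. It was in the 3′UTR of 5 of 31 genes of the immediate early and cytokine lists higher in 4sU, of 3 of the 15 lowest genes and of 4.71% of all genes tested.

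The Pumilio element (TGTANATA) is shown for messages among the 15 lowest, again with 10 bases to each side of the first match.
Six4: tgtgtgtgtgTGTACATAcacacattca
Zfp292: cttcagttatTGTAAATAattgagttaa
Has2: tgattgttttTGTAAATAaaatattttt
Usp31: catacactggTGTATATActgtatttag
They lie at chr12:74203878-74203905 (Six4), chr4:34751991-34752018 (Zfp292), chr15:56497187-56497214 (Has2) and chr7:128787531-128787558 (Usp31) of mm9, all on the minus strand. The Zfp292 3′UTR held 4 such matches, and 23.1% of all genes tested held at least 1. The only match of Has2 starts 2013 nt after the stop codon in a 3′UTR of 2037 nt. It overlaps AATAAA, the sequence of the common poly(A) signal, and whether it acts as a Pumilio site was not tested.

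Of 9446 genes tested, 1290 (13.7%) were higher in Ft and 1840 (19.5%) higher in 4sU, at an adjusted p under 0.05 by edgeR's quasi-likelihood test and at least a 2-fold difference. The genes from the 5th to the 95th percentile spanned −2.19 to 1.42 on the log2(Ft/4sU) scale, and the lower tail was the longer. Where RPM replaced the median-ratio scaling, the median over all genes moved from −0.03 to −0.20, with 846 genes higher in Ft and 2149 higher in 4sU, so that 28.2% of calls were in Ft against 41.2%. Statements on direction are therefore relative to that centre. Clusters with fewer than 5 reads are not listed in a library, and 162 genes called higher in 4sU were unlisted in at least 1 Ft library, as were 26 of the opposite group in at least 1 4sU library. Such genes could pass the read filter through 1 fraction alone, so genes were ranked only where every library had at least 20 reads. The gene lists and the comparisons by uridines, 3′UTRs and motifs kept them. A gene unlisted in both libraries of a fraction could be called in 1 direction only. The lowest members of several lists of regulators were unlisted in at least 1 Ft library, and the highest of some other lists in at least 1 4sU library.

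The 0 h and 4 h pairs gave closely similar ratios. Across the 7406 genes with at least 20 reads in each library, log2(Ft/4sU) of the pairs correlated with Pearson r = 0.91 and Spearman rho = 0.91. This is a description across genes, which are not independent replicates. The difference between pairs had an SD of 0.42, against an SD over genes of 0.99 and 1.01 within the pairs. The pairs differed by less than 1 for 97.4% of these genes, and 87.6% had the same sign in both pairs.

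**Figure D1:**
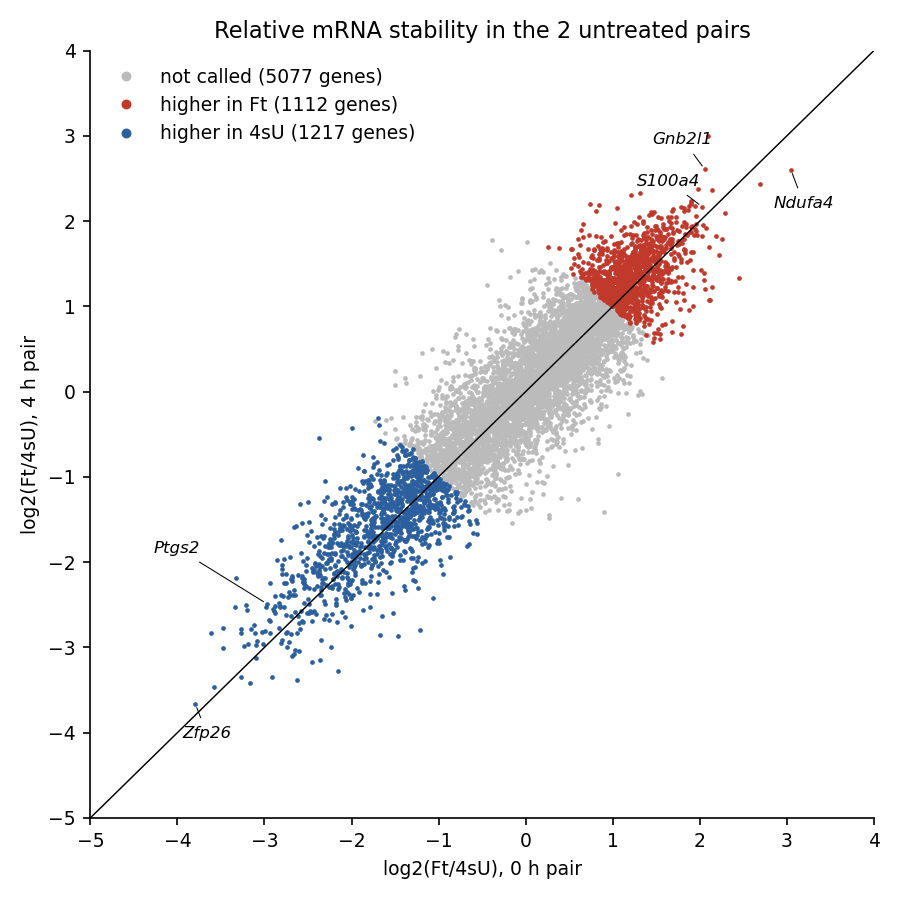
Each point is one of the 7406 genes with at least 20 reads in each library, with log2(Ft/4sU) of the 0 h pair on the x axis and of the 4 h pair on the y axis, and the line marks equal values. The 1217 genes higher in 4sU (blue) and 1112 higher in Ft (red) lie along the line, away from the 5077 genes not called (grey).

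The 15 genes with the lowest log2(Ft/4sU) had a median 3′UTR of 4087 nt, against 742 nt over all genes tested. Zfp26 (ENSMUSG00000063108.7, chr9:20237416-20264606), a zinc finger gene, had 393 and 339.9 normalised reads in 4sU (0 h and 4 h) against 27.8 and 26.4 in Ft. Its log2(Ft/4sU) was −3.74 ± 0.22 (SE, 2 pairs, edgeR adjusted p = 3.6e-59), or 13.4-fold. Both 4sU libraries stood far above both Ft libraries, without overlap.

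Zbtb6, a BTB-domain zinc finger gene, had the most reads in 4sU of the 15, 1752 and 1646 against 157 and 204 in Ft (log2(Ft/4sU) −3.23 ± 0.15, adjusted p = 2.6e-98). Map3k2, a kinase upstream of MAP kinases, had 770.2 and 742 against 63.8 and 66.5 (−3.53 ± 0.18). Klf7, a Krüppel-like transcription factor, had 1296 and 1427 against 151 and 163 (−3.11 ± 0.15). In each of these the fractions did not overlap and the pairs differed by at most 0.47.

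Ccnt1 encodes cyclin T1, a subunit of the elongation factor P-TEFb, and had 1084 and 995 normalised reads in 4sU against 115 and 125 in Ft (−3.11 ± 0.16). Has2, the hyaluronan synthase of fibroblasts, had 699.8 and 679 against 71.9 and 94.9 (−3.04 ± 0.17). Ahr, the aryl hydrocarbon receptor, had 407 and 391 against 47.6 and 50.9 (−3.01 ± 0.20). Tnrc6b, a partner of Argonaute in miRNA silencing, had 786 and 1191 against 91.7 and 152 (−3.03 ± 0.16). Tnrc6b had the longest 3′UTR of the group, 11613 nt, and was moved most by the offset for uridines described below, to −1.23.

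The remaining members of the 15 were Six4 (−3.32), a homeobox gene, Socs4 (−3.31), of the cytokine signalling suppressors, Zfp292 (−3.19), Rc3h2 (−3.15), which encodes the RNA-binding protein roquin-2, Zfp597 (−3.10), Rbm15 (−3.09) and Usp31 (−3.03). Among the 15, 3′UTRs ran from 344 nt (Rbm15) to 11613 nt in length. At least 1 AU-rich pentamer was present in 14 of the 15, the nonamer in 3 and the Pumilio element in 8. All 15 kept their call when uridines were offset.

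The 15 genes with the highest log2(Ft/4sU) had a median 3′UTR of 171 nt. S100a4, a calcium-binding protein of fibroblasts, was by far the most abundant, with 9501 and 7255 normalised reads in 4sU against 38786 and 32623 in Ft (log2(Ft/4sU) 2.10 ± 0.10, SE, adjusted p = 8.0e-86, 4.28-fold). With the uridine offset described below it came to 0.64 and was not called. Gnb2l1, which encodes the ribosomal scaffold RACK1, had 1031 and 546 against 4296 and 3333 (2.33 ± 0.13). Ndufa4, a respiratory chain subunit, had 39.6 and 37.1 against 331 and 228 and reached the highest value, 2.82 ± 0.22.

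Gcat, an enzyme of threonine breakdown, had 70.5 and 25.7 normalised reads in 4sU against 304 and 209 in Ft, and its pairs differed the most of the 15, at 2.10 and 3.00. Rplp0, the ribosomal stalk protein, had 249 and 212 against 933 and 975 (2.06 ± 0.15). Eef1b2, an elongation factor subunit, had 182 and 100.5 against 719 and 524 (2.18 ± 0.16). In all of these the fractions were apart in both pairs.

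Others of the 15 were Gm4799 (2.26), Banf1 (2.19), Txndc5 (2.09), a thioredoxin-domain protein of the endoplasmic reticulum, Dnajc15 (2.08), Ext2 (2.05), of heparan sulphate synthesis, Endog (2.03) and Acss2 (2.03). An AU-rich pentamer was present in 2 of the 15, the nonamer in 1 (Rplp0, with a 3′UTR of 194 nt) and the Pumilio element in 1. With the uridine offset, 11 of the 15 remained called, and S100a4, Gm4799, Dnajc15 and Endog did not.

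Cstf2t, a testis-enriched paralogue of the cleavage stimulation factor gene Cstf2 with 1 exon, stood second in this order at 2.55 ± 0.14 (295 and 419 against 1909 and 2266). Its value rests on a PAS 401 nt past the annotated end. With PASs counted only up to that end it was −1.19 and no longer called. Its level in the 3 total RNA libraries was 401, 73.6 and 11429 RPM, so these libraries do not agree on it.

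**Figure D2:**
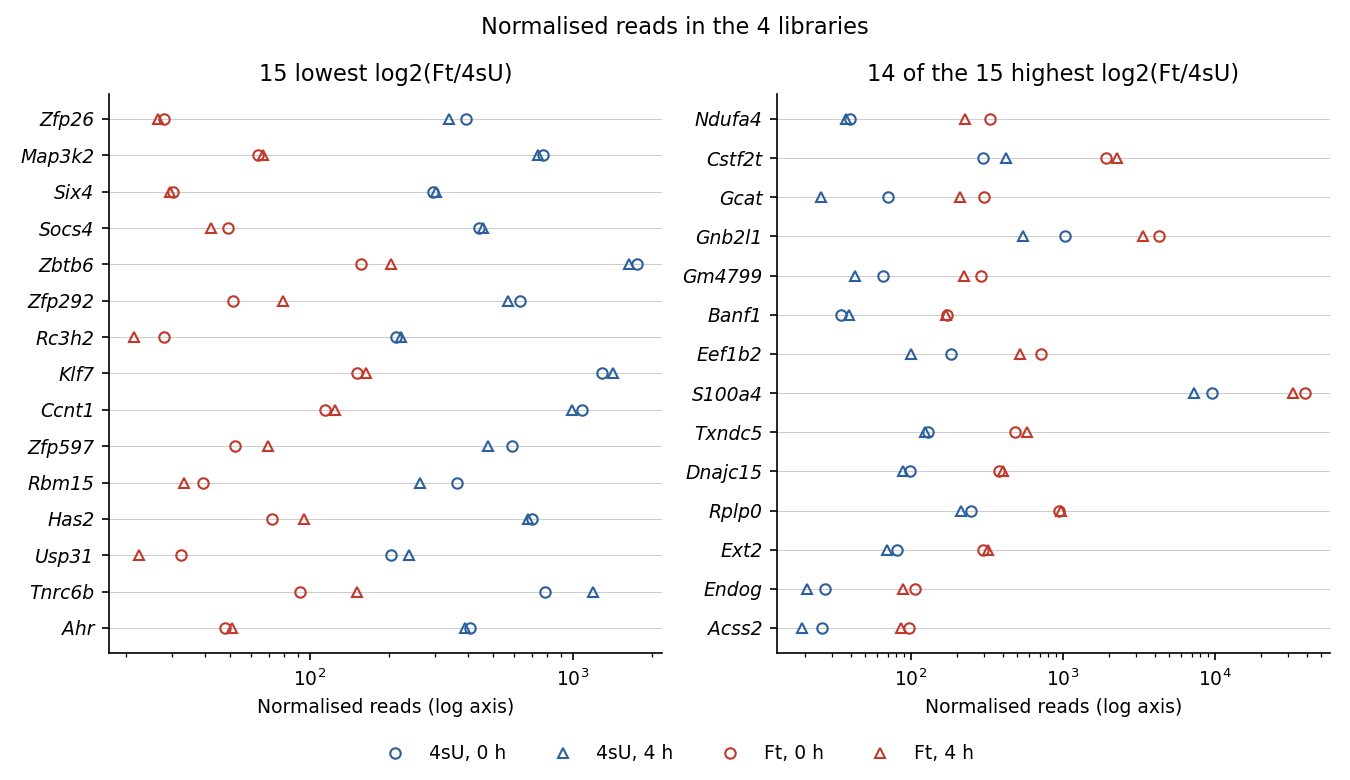
Normalised reads (log axis) in the 2 4sU libraries (blue) and the 2 Ft libraries (red) for the 15 genes with the lowest (left) and 14 of the 15 with the highest (right) log2(Ft/4sU), with circles for 0 h and triangles for 4 h. The fractions do not overlap for any gene drawn, as the choice of genes entails, and the highest Ft value on the left is 204 (Zbtb6).

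Among 24 gene lists, those of inducible regulators had medians well under 0, except the NF-kappaB feedback genes (median 0.15). Of 35 immediate early genes tested, 22 were higher in 4sU (62.9%, against 19.5% of all genes) and 0 higher in Ft, with a median log2(Ft/4sU) of −1.497. Fos, the AP-1 subunit, had 197 and 194 normalised reads in 4sU against 58 and 56.7 in Ft (−1.76, adjusted p = 2.0e-15). Myc had 618 and 709.8 against 135 and 189 (−2.04), and Klf6, the lowest of the list, had 890.2 and 785 against 132 and 111 (−2.79 ± 0.16). Fosl2, another AP-1 subunit, had the most reads, 3109 and 2289 against 678 and 695 (−1.96 ± 0.13). Jund, the constitutively made AP-1 member, was the highest of the list at 0.12 ± 0.60, a value indistinguishable from 0 (adjusted p = 0.88) from 18.5 to 24.4 normalised reads a library.

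The lists of dual-specificity phosphatases and of ID, SMAD and Notch feedback genes also had medians under 0. Of 11 dual-specificity phosphatase genes, which switch off MAP kinases, 7 were higher in 4sU (63.6%, against 19.5% of all genes). Their median was −1.97. Dusp6 had 455 and 429 normalised reads against 85.9 and 88 in Ft (−2.34 ± 0.18), whereas Dusp9 was the 1 member higher in Ft (1.01 ± 0.22). That value is at the 2-fold limit, and it fell under it with RPM scaling (0.84), DESeq2 (0.99), the uridine offset (0.95) and without the 4 h library of either fraction (0.83 without 4sU and, not passing the test, 0.72 without Ft), among others. Of 18 ID, SMAD and Notch feedback genes, 11 were higher in 4sU (61.1%, against 19.5% of all genes) and 0 in Ft. Their median was −1.40. Skil, an inhibitor of SMAD signalling, had 2481 and 2026 against 348 and 296 (−2.80 ± 0.14). Id3 had 2739.7 and 2078 against 2301 and 2291, −0.05 ± 0.12, with the pairs on either side of 0. With the uridine offset it came to −0.68, under the 2-fold limit.

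Of 21 cytokine, growth factor and COX2 messages, 9 were higher in 4sU (42.9%, against 19.5% of all genes) and 1 in Ft (median −0.81). Ptgs2, the inducible cyclooxygenase COX2, had 5432 and 4595 normalised reads in 4sU against 693 and 818 in Ft (−2.73 ± 0.13, adjusted p = 3.9e-95), a 6.62-fold difference. Ereg, an EGF receptor ligand, had 847 and 782 against 121 and 101 (−2.88 ± 0.16), and Vegfa had 544 and 597 against 78.9 and 125 (−2.48). The chemokine message Ccl2 had 731 and 784 against 637 and 706 and did not pass the test (−0.17 ± 0.13, edgeR adjusted p = 0.26). With the uridine offset it came to −1.09 and was called higher in 4sU. Tgfb1 was the member higher in Ft, with 187 and 155 against 359 and 383 (1.13 ± 0.17, or 0.68 and not called with the uridine offset).

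ZFP zinc finger genes formed the largest list, whatever the function of each member. Of 237 members, 160 (67.5%, against 19.5% of all genes) were higher in 4sU and 4 higher in Ft, with a median of −1.57. The member with the most reads, Zfp207, had 859 and 858 against 774 and 702 and did not pass the test (−0.22 ± 0.13, and 0.14 with PASs counted only up to the annotated end). Zfp451 had 877 and 824 against 114 and 115 (−2.89 ± 0.16), and Zfp593 was the highest at 1.24 ± 0.15 and came to −0.22 with the uridine offset described below. Zfp595, the lowest, was unlisted in both Ft libraries with 59 and 83 reads in 4sU. Other Zfp genes were unlisted there too, and such members could only come out higher in 4sU.

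Of 14 circadian clock genes, 7 were higher in 4sU (50%, against 19.5% of all genes) and 0 in Ft (median −0.93). Rora, a nuclear receptor of the clock, was the lowest, with 127 and 144 normalised reads against 11.6 and 14.7 (−3.35 ± 0.31). The p53 pathway list also leaned to 4sU (median −0.78), with 8 of 20 higher in 4sU (40%) and 1 higher in Ft (5%). Mdm2, the ligase that degrades p53, had 1048 and 1189 against 187 and 211 (−2.49 ± 0.15), and the message of p53 itself, Trp53, had 30.9 and 56.3 against 110.2 and 119 (1.38 ± 0.26). Of 13 NF-kappaB feedback genes, 3 were higher in 4sU (23.1%, close to the 19.5% of all genes). The lowest of them was unlisted in the 0 h Ft library. The median of 0.15 changed sign between the pairs (−0.07 and 0.19) and with RPM scaling or the uridine offset.

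Genes of ubiquitin ligases were higher in 4sU in 16 of 36 (44.4%, against 19.5% of all genes, median −0.89). Those of mRNA decay and AU-rich element binding were so in 23 of 52 (44.2%, median −0.91, 1 higher in Ft). Pum2, a Pumilio protein, had 794 and 985 normalised reads against 214 and 239 (−1.97), and Zfp36l1, which binds AU-rich elements, 456 and 493 against 65 and 116 (−2.39). Elavl1, which encodes the stabilising protein HuR, had 1939.8 and 2225 against 2469 and 2855 (0.35 ± 0.12), so it lay on the Ft side but under the 2-fold limit, and it did not pass the test without the replicate block, with RPM scaling or with any library left out.

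Genes of the cell's housekeeping machinery had medians above 0. Lysosomal genes were the highest list: 22 of 27 were higher in Ft (81.5%, against 13.7% of all genes), 0 were higher in 4sU and the median was 1.47. Ctsb, a lysosomal protease, had 2077 and 1642 normalised reads in 4sU against 5507 and 5449.5 in Ft (1.57 ± 0.12). Lamp1, a membrane protein of lysosomes, had 1334 and 914 against 3563 and 2943 (1.55 ± 0.12). Every one of the 27 members tested lay above 0, against 4639 of 9446 over all genes tested.

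Of 70 nuclear-encoded respiratory chain genes, 53 were higher in Ft (75.7%, against 13.7% of all genes) and 0 in 4sU (median 1.23). With the uridine offset described below these were 7 and 1. Cox4i1, of cytochrome c oxidase, had 2865 and 1854 normalised reads against 7393 and 6171 (1.55 ± 0.12, or 0.27 and not called with the offset), and Cox6c of the same complex 2578 and 2219 against 3338 and 2996 (0.40 ± 0.12, but −0.97 with the offset). Of 28 glycolysis and TCA cycle genes, 14 were higher in Ft (50%) and 2 in 4sU (7.14%, against 19.5% of all genes). Aldoa, an aldolase, had 4861 and 3741 against 12331 and 9517 (1.34 ± 0.11, or 0.75 and not called with the offset), whereas Hk2, an inducible hexokinase, had 449 and 404 against 147 and 158 (−1.47 ± 0.17). Proteasome subunits were higher in Ft in 15 of 28 (53.6%), or 4 with the offset. Psmb4 had 1018 and 698 against 2999 and 2873 (1.80 ± 0.13, or 0.92 and not called with the offset).

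Cytosolic ribosomal protein genes were higher in Ft in 35 of 64 (54.7%, against 13.7% of all genes), or 4 with the uridine offset. Their median was 1.19, and 63 of 64 lay above 0, against 4639 of 9446 over all genes tested. Rps20 had 20159.8 and 11635 normalised reads against 42025 and 32815 (1.28 ± 0.10, and −0.21 with the uridine offset). The extremes of the list, Rpl24, unlisted in the 4 h Ft library, and Rps2, unlisted in both 4sU libraries, rest on few reads. The model used for Rpl24, the member under 0, has 11 exons and a coding sequence of 3150 nt. It holds 1335 uridines, against a list median of 143, so its reads may not be those of the ribosomal protein message. Ribosomal protein genes have many processed copies in the genome, and the authors discarded reads of low mapping quality. The value of Rps2 is therefore uncertain too. Translation factors were higher in Ft in 14 of 34 (41.2%) and in 4sU in 0. Eef2 had 10830.4 and 6758 against 27637 and 22236 (1.53 ± 0.10).

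Structural messages also lay on the Ft side. The shares higher in Ft were 38.5% for extracellular matrix and 33.3% for cytoskeleton genes, against 13.7% of all genes. For extracellular matrix genes 5.13% were higher in 4sU, against 19.5% of all genes. Over all genes tested, 4639 of 9446 lay above 0. Of 39 extracellular matrix genes, 15 were higher in Ft and 2 in 4sU (median 0.96). Fn1, fibronectin, had 2531 and 3005 normalised reads against 5248 and 5771 and was just under the 2-fold limit (0.996 ± 0.12). With the uridine offset it came to 1.94 and was called. Timp1, a metalloproteinase inhibitor, had 3463 and 2250.4 against 8670.1 and 5779 (1.34 ± 0.11, or 0.33 and not called with the uridine offset). Thbs1, the inducible matrix protein thrombospondin, was the lowest at −1.79 ± 0.12 (5036 and 5783 against 1429.5 and 1709). Of 39 actin and tubulin cytoskeleton genes, 13 were higher in Ft and all 39 lay above 0, among them Vim, with 6852 and 6859.6 against 15522 and 16611 (1.23 ± 0.11, or 0.95 and not called with the offset), and Actb, with 19391 and 11377 against 31369 and 22073 (0.83 ± 0.10), which did not pass the test without the 4 h 4sU library or without the 0 h Ft library.

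Of 23 cholesterol genes, 5 were higher in Ft (21.7%, against 13.7% of all genes) and 3 in 4sU (13.0%, against 19.5%), so neither share was far from that over all genes. Tm7sf2, a sterol reductase, had 30.9 and 32.1 normalised reads against 121 and 121 (1.94 ± 0.27). Cyclin and mitotic genes had 7 of 35 higher in 4sU (20.0%) and 2 in Ft (5.71%), the first close to the share over all genes, with Cdk4 at 1.68 ± 0.12 from 1404 and 1194 against 4488 and 3832. Of 32 SR protein and hnRNP genes 1 was called, and the 25th and 75th percentiles were −0.17 and 0.42.

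The remaining lists of metabolic and synthetic machinery also had medians above 0. Chaperones were higher in Ft in 12 of 24 (50%, median 0.95) and mitochondrial ribosomal proteins in 20 of 68 (29.4%, median 0.82, with 1 higher in 4sU). Aminoacyl-tRNA synthetases were higher in Ft in 5 of 20 (25%, median 0.51), not far above the 13.7% of all genes. The mitochondrial ribosomal protein gene higher in 4sU was unlisted in both Ft libraries.

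**Figure D3:**
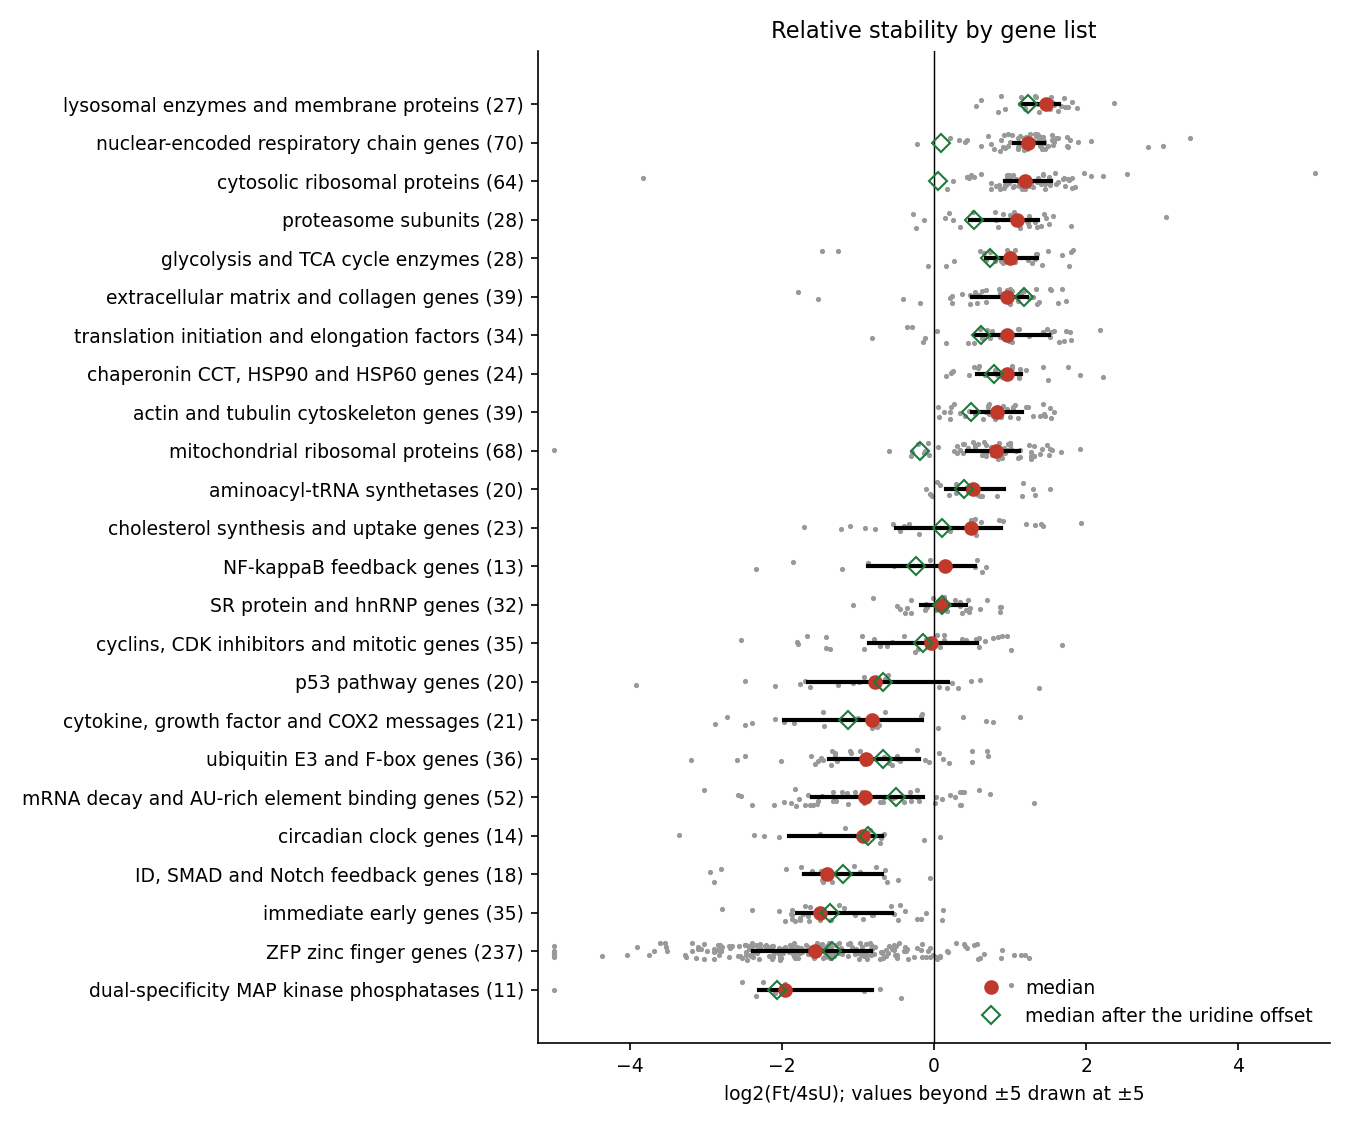
log2(Ft/4sU) of each member tested (grey points, number tested in brackets) for 24 gene lists, with the median (red), the range from the 25th to the 75th percentile (black bar) and the median with the uridine offset (green diamond). The medians run from −1.97 for dual-specificity phosphatases to 1.47 for lysosomal genes, and the offset brings those of ribosomal protein and respiratory chain genes close to 0.

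Capture by 4sU depends on how many uridines a transcript offers, so long transcripts are more readily caught. The log2(Ft/4sU) of a gene fell with the log2 number of uridines in its transcript, with Pearson r = −0.53 and Spearman rho = −0.58 across the 9446 genes, as a description. The fitted slope was −0.62 for each doubling of uridines. In the quintile of genes with the fewest uridines (2 to 342) the median was 0.86, 38.2% were higher in Ft and 2.06% higher in 4sU. In the quintile with the most (1145 to 5601) the median was −1.01, with 1.01% and 48.2%. Length-dependent capture and length-dependent decay cannot be told apart here, and the offset removes both alike.

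With the number of uridines as an offset in the fit, 702 genes (7.43%) were higher in Ft and 1399 (14.8%) higher in 4sU. Of the genes called without it, 397 (30.8%) of those higher in Ft and 1136 (61.7%) of those higher in 4sU kept their call, and 0 changed sides. Some of the low lists kept low medians: −2.06 for dual-specificity phosphatases, −1.36 for immediate early genes and −1.34 for ZFP genes. Those of ubiquitin ligases and mRNA decay genes came to −0.67 and −0.51. The number of genes higher in 4sU went from 22 to 28 for immediate early genes and 9 to 12 for cytokine messages. It went from 160 to 143 for ZFP genes, 23 to 14 for mRNA decay, 16 to 11 for ubiquitin ligases and 8 to 6 for the p53 pathway. Lysosomal genes (1.24) and extracellular matrix genes (1.18, with 26 of 39 now higher in Ft) had the highest medians. The number of genes higher in Ft went from 22 to 19 for lysosomal genes, 14 to 9 for translation factors, 53 to 7 for the respiratory chain, 35 to 4 for ribosomal proteins, 15 to 4 for the proteasome and 20 to 1 for mitochondrial ribosomal proteins. Ribosomal protein, respiratory chain and mitochondrial ribosomal protein genes, whose transcripts hold a median of 143, 169 and 203.5 uridines, came to 0.05, 0.10 and −0.18.

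**Figure D4:**
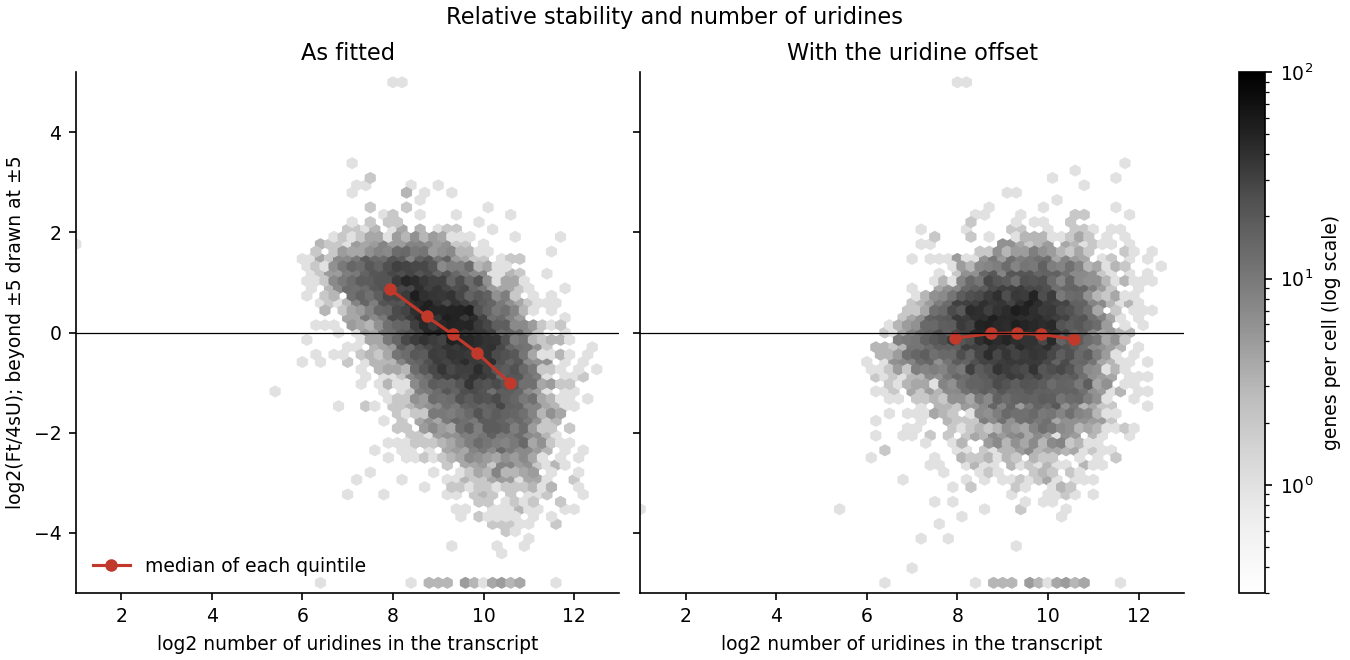
log2(Ft/4sU) of the 9446 genes tested against the log2 number of uridines in the transcript, as fitted (left) and with the uridine offset (right), with darker cells for more genes and red points for the median of each quintile. The median falls from 0.86 to −1.01 on the left and stays between −0.14 and −0.01 on the right.

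The offset brought other genes to the ends of the order. Among genes with at least 20 reads in each library, the 5 highest adjusted values were those of Cstf2t (3.08), Pdzrn3 (2.85), Hspg2 (2.52), the basement membrane protein perlecan, Pcnxl3 (2.38) and Col4a5 (2.19), a type IV collagen chain. The main PAS of Pdzrn3 lies 3491 nt past the annotated end, and its uridine count extends to there. Hspg2 had 754 and 576 normalised reads in 4sU against 1727 and 1306 in Ft, and its pairs were at 1.19 and 1.18 before the offset. The 5 lowest were Atf7 (−2.95), Spry2 (−2.94), an inhibitor of receptor tyrosine kinase signalling, Rbm15 (−2.85), Pde4d (−2.82) and Gm6020 (−2.70). Spry2 had 182 and 199 against 26.7 and 24.5. The models used for Atf7, Pde4d and Gm6020 have 1 exon each, so their uridine counts, and with them the adjusted values, may not be those of the full messages.

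Genes higher in 4sU had long 3′UTRs and a low density of exon junctions. The median 3′UTR length was 1876 nt in genes higher in 4sU, 742 nt in all genes tested and 273 nt in genes higher in Ft. Exon junctions of the whole transcript, divided by the kb of coding sequence, had medians of 4.36, 6.51 and 7.52 in the same order. The number of exons itself had medians of 8, 9 and 7, and the coding sequence of 1782, 1386 and 846 nt. With the uridine offset the 3′UTR medians of the called groups were 1158 and 698 nt and the junction densities 3.87 and 7.19. The difference in 3′UTR length between the called groups thus narrowed while that in junction density remained. Exon number and coding length changed order with the offset: genes higher in 4sU had medians of 6 exons and 1470 nt, and genes higher in Ft 15 exons and 2079 nt.

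The motifs followed the same order. The AU-rich pentamer was in the 3′UTR of 88.8% of genes higher in 4sU, 61.1% of all genes tested and 29.5% of genes higher in Ft, the nonamer in 11.7%, 4.71% and 0.698%, and the Pumilio element in 48.4%, 23.1% and 4.81%. Longer 3′UTRs hold more of any short motif. Among 3′UTRs of 1000 to 2000 nt alone, the pentamer was in 92.8% of 513 genes higher in 4sU and 77.9% of 77 genes higher in Ft. The Pumilio element was in 44.2% and 18.2% of these, and the nonamer in 8.77% and 1.30%.

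Within each class of 3′UTR length, genes with 3 or more pentamers had lower medians than genes with 0. For 3′UTRs over 700 and up to 1400 nt the median log2(Ft/4sU) was 0.10 with 0 pentamers (555 genes), −0.12 with 1 or 2 (947 genes) and −0.53 with 3 or more (619 genes). With the uridine offset these medians were 0.08, −0.04 and −0.28.

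**Figure D5:**
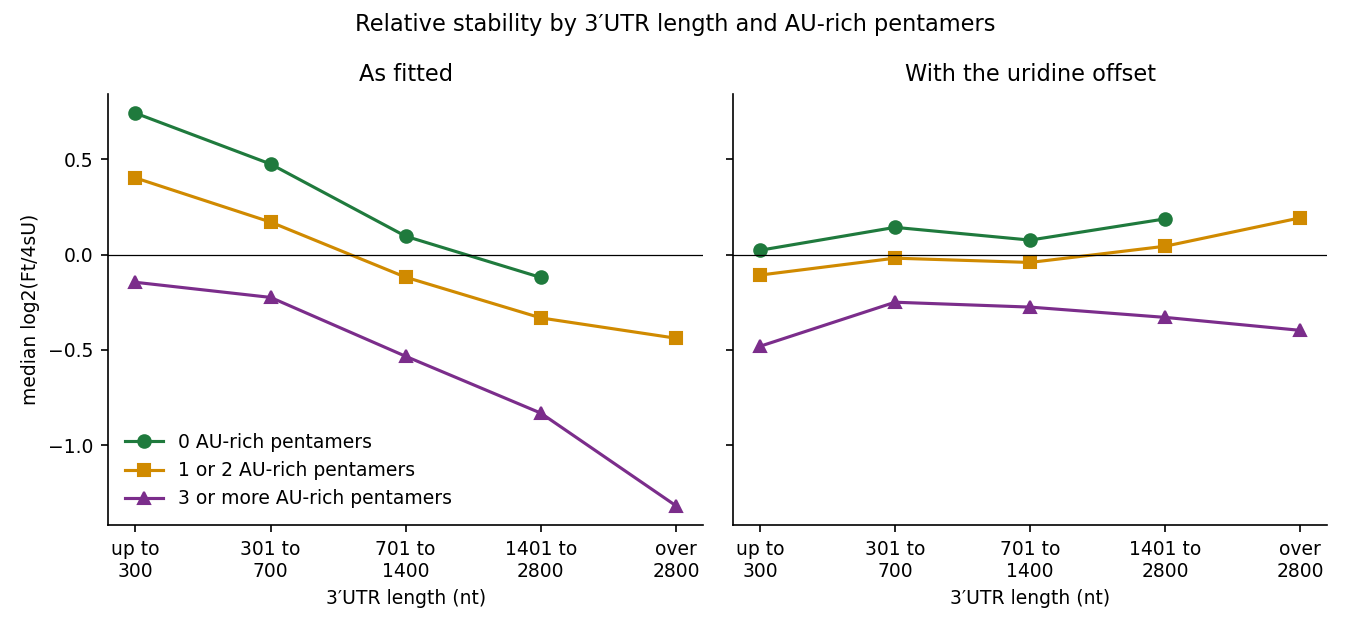
Median log2(Ft/4sU) by class of 3′UTR length (x axis, nt) for genes with 0 (green), 1 or 2 (orange) or 3 or more (purple) AU-rich pentamers, as fitted (left) and with the uridine offset (right), for classes of at least 20 genes. The purple points are the lowest in every class drawn, with −1.32 as fitted for 3′UTRs over 2800 nt.

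TIA1, a protein that binds U-rich RNA, was profiled in the same untreated cells by immunoprecipitation from the cytoplasmic fraction, with matched input in 2 pairs. Across 5837 genes, log2(TIA1/input) and log2(Ft/4sU) gave Pearson r = −0.57 and Spearman rho = −0.57, as a description across genes that share length and base composition. With the uridine offset rho was −0.18. The median log2(TIA1/input) was 1.11 in 850 genes higher in 4sU and −0.87 in 999 genes higher in Ft.

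Total RNA of untreated cells served as a further readout. Among genes with at least 20 reads in each library, the mean RPM of the 3 total RNA libraries was closer to Ft than to 4sU for 1076 of 1217 genes higher in 4sU (88.4%) and for 786 of 1112 genes higher in Ft (70.7%). Total RNA thus lay nearer to Ft in both groups. The share over genes not called was not computed and the 3 libraries differed strongly for some genes, so no conclusion on stability is drawn from it.

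At the far end, 15 genes with at least 20 reads in both 4sU libraries were unlisted in both Ft libraries. The one with the most reads, A430033K04Rik, had 76 and 88 reads in 4sU, followed by Zfp595 with 59 and 83, Zmynd17 with 40 and 53, Ikzf2, a lymphoid transcription factor of the Ikaros family, with 40 and 51, and Etv3, an ETS repressor, with 32 and 57. In the reverse direction there were 2 genes, Rps2 and Tprg. No fold is given for these genes, since counts under the listing minimum are not known.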

How the data were processed

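3′READS libraries of NT NIH3T3 cells were analysed from deposited counts. Per the labels and the study's methods, the authors mapped reads to mm9 with Bowtie2, kept as PAS reads those of sufficient mapping quality with Ts not found in the genome, and deposited read counts per PAS cluster of at least 5 reads. Here, counts were summed per protein-coding gene (GENCODE M1), over the last exons of its annotated transcripts and up to 4000 nt past the annotated end, keeping the gene ID with most reads where a symbol had several. Genes with at least 40 reads in all and listed in both libraries of a fraction were tested with edgeR 4.0.16 (quasi-likelihood, median-ratio size factors, R 4.3.3), with label time as block and fraction as term, and Benjamini-Hochberg adjustment. The block rests on each Ft and 4sU library being fractions of one RNA sample; deviations of same-time libraries correlated with r = 0.34 over 7406 genes. Uridines were counted in the transcript ending at the main PAS. Pair ratios used a pseudocount of 0.5. The fit was tested on simulated data. Depth ranged from 2513834 to 3960472 reads, and counting error and pair spread both enter the SE. Named genes were the 15 highest and 15 lowest called genes with at least 20 reads in each library, 5 each with the uridine offset, the 4 most read and the extreme members of each list, and 5 unlisted genes per direction; a selection of these is described, 1 of the 15 highest is not reported here, and other members are examples. Alternatives were DESeq2, TMM or RPM scaling, other read filters and PAS assignments, no block, a uridine offset and leaving out each library. The members and gene lists were chosen with earlier results of these data known. Mitochondrially encoded messages were kept apart. Files of the other 31 samples were not used here.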

Additional observations from a re-analysis of the deposited data

How the results depend on the processing

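The counts of called genes moved most with the uridine offset, which left 702 genes higher in Ft, with RPM scaling, which left 846, and with the fold limit. The adjusted p alone gave 2729 genes higher in Ft and 2913 higher in 4sU. By DESeq2, TMM scaling, other read filters and other rules for assigning PASs, both counts stayed within 1.5 times those reported. Without the replicate block 1251 genes were higher in Ft and 1769 higher in 4sU, and of the genes named in the text Cox6c and Elavl1 no longer passed the test. Leaving out 1 library at a time, in a fit without the block, gave 1046 to 1407 and 1598 to 1917.

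The pair correlation was 0.95 at 100 or more reads in each library and 0.91 by Spearman, and the correlation with uridines was −0.62 at that depth. The uridine offset moved the median 3′UTR of genes higher in 4sU to 1158 nt and of genes higher in Ft to 698 nt, and the correlation with TIA1 binding to −0.18. With at least 50 reads asked for in the other fraction, 2 genes were unlisted in Ft and 0 in 4sU.

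Among 85 genes named in the text, the direction changed for few. With the uridine offset Cox6c came to −0.97, Jund to −0.11, Rps20 to −0.21 and Zfp593 to −0.22, and with RPM scaling Jund to −0.0509. With PASs counted up to the annotated end, Cstf2t came to −1.19 and Zfp207 to 0.14. Leaving out a library gave −0.25 to 0.14 for Id3 and −0.0408 to 0.27 for Jund. The cause was not tested. Actb stayed above 0 but did not pass without the 4 h 4sU library (0.46) or without the 0 h Ft library (0.52). By DESeq2, A430033K04Rik, Ikzf2, Zfp595 and Zmynd17, listed at 0 in both Ft libraries, and Rpl24, listed at 0 in 1, did not pass.

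With 2 pairs, the SE leans on the spread shared across genes, and values of genes with few Ft reads are imprecise.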

Other observations

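Messages encoded by mitochondrial DNA, which are made and degraded inside the organelle, were kept out of the comparison. They took 7.15% and 4.77% of PAS reads in 4sU (0 h and 4 h) and 3.22% and 3.17% in Ft. Of 7 with reads, mt-Nd4 was the most abundant, with 107983 and 64167 normalised reads in 4sU against 44670 and 40213 in Ft, and log2(Ft/4sU) of −1.27 and −0.67 in the pairs. mt-Cytb had −1.26 and −0.63. mt-Co1 had −0.34 and 0.41, on either side of 0.

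Of 242 genes tested with a model of 1 exon, 39 (16.1%) were higher in Ft and 53 (21.9%) higher in 4sU, against 13.7% and 19.5% of all genes tested, and the median was −0.19, or −0.61 with the uridine offset. Among them were Cstf2t, near the top of the order, and the 1-exon models of Atf7 and Pde4d.

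The total RNA libraries differed strongly for some genes of the upper end. Ndufa4 had 7.08, 18.6 and 1124 RPM in the 3 libraries, and Cstf2t 401, 73.6 and 11429 RPM.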
